A study of Mus musculus with 4 samples.

Results

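Genes of mesoderm and the primitive streak were followed in mouse embryonic stem cells that had lost Trim28, against wild-type cells. A list of 32 gene symbols fixed the set, and 31 of them were read by a probe set annotated to that symbol alone, out of 18820 genes tested. T (brachyury), the T-box factor that defines the streak, is the member with no such probe set, and its level was not analysed here. Each of the 31 measured members had 1 single-gene probe set.

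The knockout group, KAP_KO, holds 2 samples of embryonic stem cells with floxed Trim28 alleles (KAP1 fl/fl), labelled as knockout and as treated with 4-hydroxytamoxifen. The wild-type group, KAP_WT, holds 2 samples labelled wild type that carry the same 4-hydroxytamoxifen label. The protocol describes 24 h of 4-hydroxytamoxifen or ethanol and a further 48 h without it, on irradiated mouse embryonic fibroblasts, and names no step that removes these feeder cells. The recombinase that 4-hydroxytamoxifen induces is not named in the labels, nor is whether both groups come from 1 parental line, so a difference between lines and the loss of Trim28 cannot be told apart. Replicates are labelled biological. The p-values rest on the spread between the 2 arrays of each group and on a variance prior drawn from all genes (2 residual and 4.70 prior degrees of freedom). They measure no spread beyond these arrays.

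In the gastrulating embryo, Nodal, Wnt and BMP signals induce the primitive streak, where epiblast cells switch on T, Eomes and Mixl1, leave the epithelium and become mesoderm. Mesp1 and Tbx6 then mark cells on their way to heart, blood vessels or somites, and factors such as Gata2, Hand1 and Foxc1 follow in the separate mesodermal tissues. Embryonic stem cells keep most of these genes silent, many of them under Polycomb, and can be driven to express them by the same signals. Trim28, also called KAP1, is a co-repressor recruited by KRAB zinc finger proteins, and the series title pairs it with the Polycomb protein Rnf2 at differentiation genes.

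Values are log2 expression after the authors' RMA processing. Trim28 itself read 8.97 and 8.92 in the KAP_KO samples, against 11.29 and 11.37 in the KAP_WT samples. Array medians over the tested genes were 5.66 and 5.63 in KAP_KO and 5.46 and 5.48 in KAP_WT. Of the 12 stem cell markers on a fixed list, 7 were lower in KAP_KO (58.3%, against 12.7% of all genes). In limma 0 were higher, against 14.2% of all genes, and no marker at an unadjusted p under 0.05 was higher. Every one still lay above the array median in all 4 samples, as Pou5f1 did at 10.86 and 10.78 in KAP_KO and 11.28 and 11.33 in KAP_WT. How far each value stands above background is not known, since no detection calls were used. For 21 of the 31 members all 4 values lay below the array medians, where RMA compresses differences. The same held for 8672 of the 18820 genes tested, a smaller share.

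In the knockout cells a minority of the mesoderm genes were higher and no measured member passed the test as lower. The rises were led by the VEGF receptor gene Flt1, the blood and endothelial factor gene Gata2, the mesenchymal forkhead gene Foxc1, the caudal homeobox gene Cdx4 and the lateral mesoderm gene Hand1. Among measured factors of the streak and of nascent mesoderm, Eomes, Mixl1, Gsc, Evx1, Lhx1, Mesp1 and Tbx6 did not pass. Cdx4, of the posterior streak, and Msgn1, of presomitic mesoderm, did pass. At an adjusted p of 0.05 in limma, 10 of 31 members were higher in KAP_KO (32.3%), against 14.2% of all genes, and 0 were lower, against 12.7% of all genes. The members lay below the array medians more often than all genes did, so these shares compare genes of unlike level. At an unadjusted p under 0.05, 12 members were higher and 0 lower. A rise of at least 2-fold was called for 4 members, against 4.44% of all genes. The median change of the members was 0.12 on the log2 scale, against -0.05 over all genes tested, and the changes ran from -0.45 to 1.87. That median was 0.053 without KAP_KO replicate 2 and 0.076 without the members on chromosomes 1, 6 and 14. Both KAP_KO samples lay above both KAP_WT samples for 17 members (26.6% of all genes did so) and below both for 5 (38.6% of all genes). Scaling moved the balance. With each array's median over the tested genes subtracted, the median change of all genes fell to -0.22. Under this setting 6 members were higher and 6 lower, while 2065 genes in all were higher and 6392 lower. Over all probe sets the array medians were nearly level, at 4.76 and 4.77 in KAP_KO and 4.76 and 4.75 in KAP_WT. Subtracting those medians was not run.

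**Figure D1:**
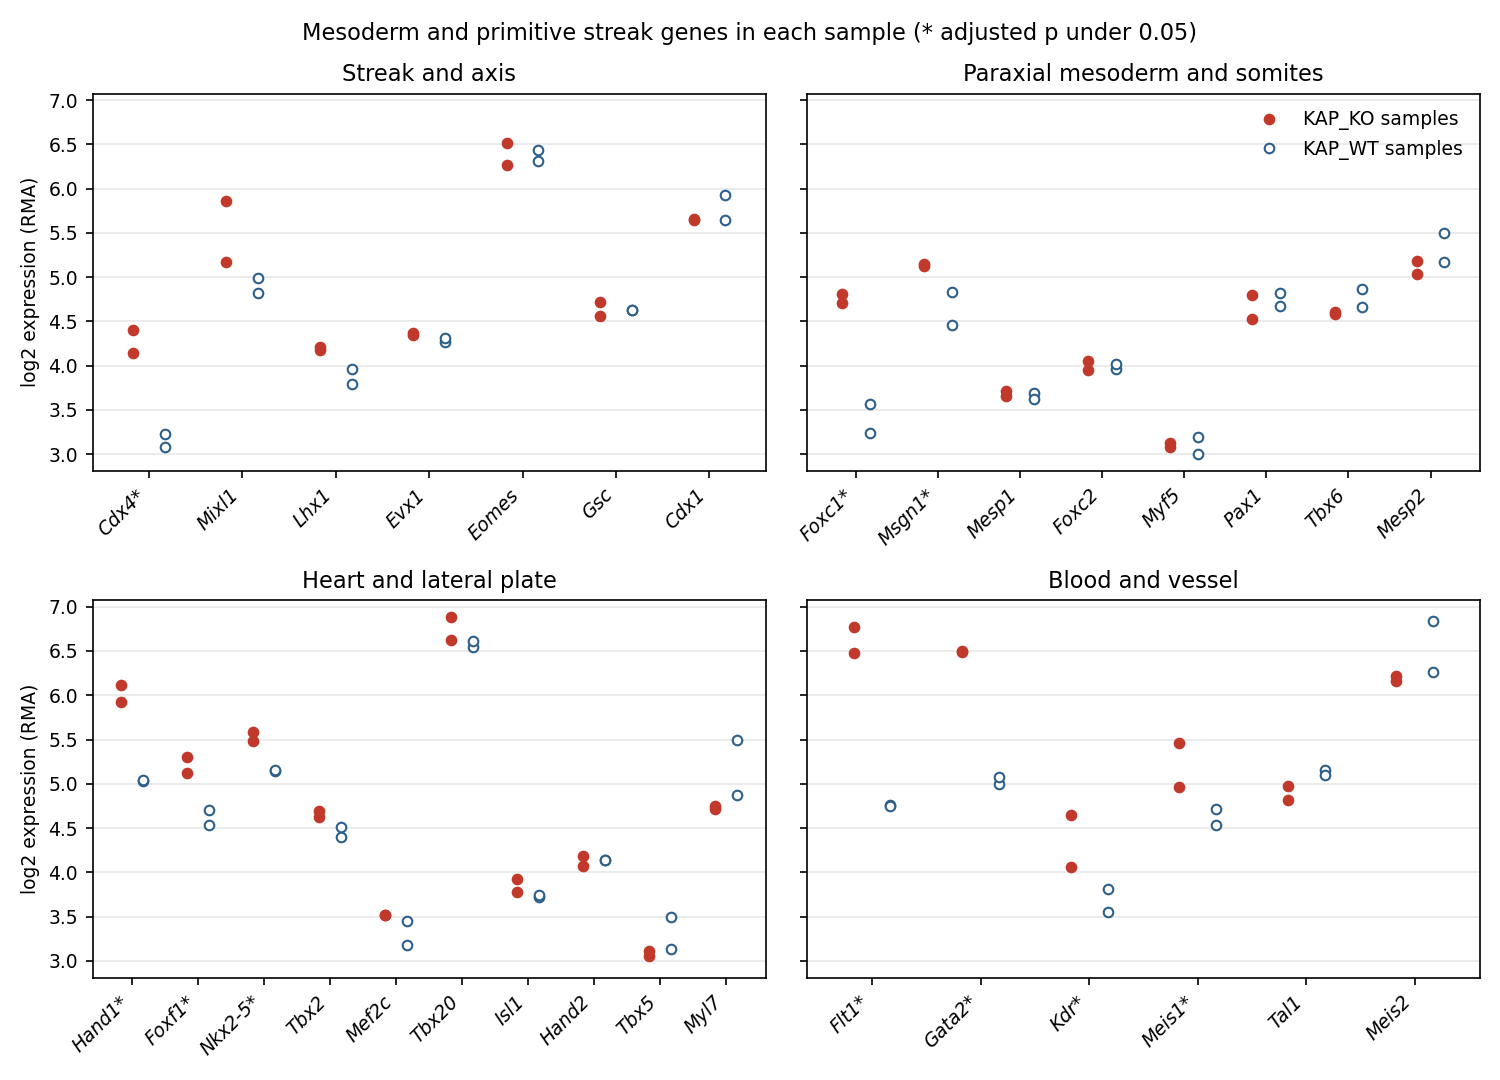
Log2 expression (RMA) of the 31 measured members, in 4 panels by role, with each KAP_KO sample as a filled point and each KAP_WT sample as an open point, and genes ordered by their change. The filled points of Flt1, Gata2, Foxc1, Cdx4 and Hand1 stand clear above the open ones, while for Eomes, Gsc, Mesp1, Hand2 and Foxc2 the points of both groups overlap.

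The windows around the transcription start are shown for the 4 members called at least 2-fold higher and for Isl1, the member whose window held the most CpG dinucleotides. Each is a RefSeq window on GRCm38.p6 of 250 bases before to 50 after the start, written 5′ to 3′ on the gene's strand, with CpG dinucleotides in capitals. For Gata2, which has 2 windows, the first by position is given.
Flt1, chr5:147725962-147726261, minus strand: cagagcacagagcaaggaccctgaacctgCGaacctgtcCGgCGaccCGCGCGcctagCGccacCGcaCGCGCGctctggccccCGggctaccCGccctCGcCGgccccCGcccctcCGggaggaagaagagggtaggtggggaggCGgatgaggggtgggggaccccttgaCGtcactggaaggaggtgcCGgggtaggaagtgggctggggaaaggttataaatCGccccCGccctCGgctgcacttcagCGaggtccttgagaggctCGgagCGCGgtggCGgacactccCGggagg
Gata2, chr6:88193641-88193940, plus strand: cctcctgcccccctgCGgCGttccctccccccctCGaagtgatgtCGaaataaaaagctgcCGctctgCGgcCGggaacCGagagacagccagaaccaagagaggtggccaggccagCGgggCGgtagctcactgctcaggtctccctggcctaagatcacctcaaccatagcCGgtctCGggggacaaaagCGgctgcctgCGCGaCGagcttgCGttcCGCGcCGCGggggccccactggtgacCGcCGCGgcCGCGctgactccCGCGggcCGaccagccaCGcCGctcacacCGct
Foxc1, chr13:31806396-31806695, plus strand: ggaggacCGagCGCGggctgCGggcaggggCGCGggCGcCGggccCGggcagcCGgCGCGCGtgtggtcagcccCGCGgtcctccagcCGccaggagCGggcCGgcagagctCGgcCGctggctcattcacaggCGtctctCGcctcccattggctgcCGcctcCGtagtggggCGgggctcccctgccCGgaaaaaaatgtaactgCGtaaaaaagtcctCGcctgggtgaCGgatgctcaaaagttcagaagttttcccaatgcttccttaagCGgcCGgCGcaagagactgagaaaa
Cdx4, chrX:103321148-103321447, plus strand: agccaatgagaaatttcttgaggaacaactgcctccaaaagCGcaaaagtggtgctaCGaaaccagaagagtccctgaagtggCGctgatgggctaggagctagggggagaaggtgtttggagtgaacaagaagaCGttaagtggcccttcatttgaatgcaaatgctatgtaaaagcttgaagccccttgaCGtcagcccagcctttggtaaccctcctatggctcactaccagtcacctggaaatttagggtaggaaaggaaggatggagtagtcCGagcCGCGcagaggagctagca
Isl1, chr13:116309639-116309938, minus strand: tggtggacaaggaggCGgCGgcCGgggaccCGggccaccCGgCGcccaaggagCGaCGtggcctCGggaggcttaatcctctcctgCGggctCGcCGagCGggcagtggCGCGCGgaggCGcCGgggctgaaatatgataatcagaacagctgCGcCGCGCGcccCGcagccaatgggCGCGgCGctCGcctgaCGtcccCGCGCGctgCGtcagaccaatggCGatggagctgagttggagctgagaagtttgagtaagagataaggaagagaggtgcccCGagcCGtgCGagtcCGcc
The windows of Flt1, Gata2 and Foxc1 are dense in CpG, with 29, 32 and 32 in 300 bases, whereas that of Cdx4 holds 8. Isl1, with 37, was not among the called members. Windows matched 25 of the 32 symbols (29 windows), all but Mixl1, Hand1, Foxf1, Foxc2, Tbx2, Tbx5 and Cdx1. A CpG observed-to-expected ratio of at least 0.6 with G and C making up at least 50% was found in 15 of these 29 windows (51.7%), against 33.5% of 32851 windows of all genes. Among members called higher it was found in 5 of 9 windows (55.6%), and among members not past the threshold in 9 of 19 (47.4%). No test was made of these shares. The GATA words AGATAA and TGATAA, searched on both strands, were in 5 of the 29 member windows and in 18.6% of all windows. The TCF/LEF words CTTTGAT and CTTTGTT were in 3 member windows and in 9.33% of all windows. Among the windows of called members, Msgn1 alone held a GATA word, and it alone held a TCF/LEF word.

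Among the 6 blood and vessel members, 4 were higher in KAP_KO (66.7%, against 14.2% of all genes) and 0 lower. Flt1, the decoy-like VEGF receptor of endothelium and trophoblast, read 6.47 and 6.77 in KAP_KO, against 4.76 and 4.75 in KAP_WT. Both knockout samples were thus well above both wild-type samples, a 3.65-fold rise (log2 1.87, SE 0.12, adjusted p = 0.00014). Kdr, the signalling VEGF receptor that marks mesoderm able to form vessels and blood, read 4.06 and 4.64 in KAP_KO and 3.82 and 3.55 in KAP_WT. Its groups did not overlap, but the KAP_KO samples differed by more than the nearest samples of the groups did. The change of Kdr was 0.67 (SE 0.20, 95% confidence interval 0.21 to 1.14, adjusted p = 0.0447), and it missed the threshold without KAP_KO replicate 2, KAP_WT replicate 1 or KAP_WT replicate 2, with adjusted p up to 0.253. The confidence intervals of the 2 receptors did not overlap, and the difference between them was not tested.

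Gata2, a zinc finger factor of blood progenitors, endothelium and trophoblast, read 6.490 and 6.494 in the KAP_KO samples, against 5.002 and 5.076 in the KAP_WT samples. The groups were far apart, and the change of 1.45 (SE 0.09, adjusted p = 0.00013), a 2.74-fold rise, had the smallest SE among the called members. Gata2 lies on chromosome 6, where stretches of neighbouring genes were shifted together in earlier results of these data, but the 25 measured genes on either side of Gata2 had a median change of -0.002. Meis1, a TALE homeodomain factor of haematopoietic and cardiac cells, read 4.96 and 5.46 in KAP_KO and 4.54 and 4.72 in KAP_WT. The second KAP_KO sample was the highest, and the change of 0.58 (adjusted p = 0.0432) was 0.34 without it (adjusted p = 0.134). Its call was also lost without KAP_WT replicate 1 (adjusted p = 0.234) or KAP_WT replicate 2 (adjusted p = 0.137). Meis2, the paralog of Meis1, read 6.17 and 6.21 in KAP_KO, against 6.84 and 6.26 in KAP_WT. Only its first KAP_WT sample stood apart, and the change of -0.36 did not pass (adjusted p = 0.198). Tal1, the helix-loop-helix factor that starts the blood programme, read 4.82 and 4.97 in KAP_KO and 5.15 and 5.10 in KAP_WT. The change of Tal1 was -0.23 (95% confidence interval -0.47 to 0.01, adjusted p = 0.141), so that Gata2 and Tal1, which act together in blood progenitors, had changes of opposite sign here, the one past the threshold and the other not.

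Of the 7 measured members of the streak and axis group, only Cdx4 passed (14.3%, near the 14.2% of all genes called higher). Cdx4, a caudal-type factor of the posterior streak that acts upstream of Hox genes, read 4.14 and 4.40 in KAP_KO, against 3.09 and 3.23 in KAP_WT. All 4 values are low on the array, and the groups were separated by more than the spread within either (log2 1.11, SE 0.12, adjusted p = 0.00097, 2.16-fold). Cdx1, its paralog, read 5.65 and 5.66 in KAP_KO and 5.64 and 5.93 in KAP_WT, with overlapping samples and a change of -0.13 (95% confidence interval -0.41 to 0.15).

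Mixl1, a paired-type homeobox gene of the streak, read 5.17 and 5.86 in KAP_KO, against 4.99 and 4.82 in KAP_WT. Its groups did not overlap, yet the KAP_KO samples lay far apart. The change of 0.61 (SE 0.21, 95% confidence interval 0.10 to 1.12) missed the threshold at an adjusted p of 0.0797. Without KAP_KO replicate 1 it was 0.96 (adjusted p = 0.00172) and without KAP_KO replicate 2 it was 0.26 (adjusted p = 0.232), so Mixl1 was called once KAP_KO replicate 1 was left out. Mixl1 lies on chromosome 1, and the 25 measured genes on either side had a median change of -0.17, at the low end of all genes.

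Eomes, the T-box factor that shares the streak with T, read 6.26 and 6.51 in KAP_KO, against 6.43 and 6.31 in KAP_WT. The samples interleaved, and the change was 0.02 with a 95% confidence interval of -0.26 to 0.30. Lhx1, a LIM homeobox gene of the node and axial mesoderm, read 4.21 and 4.18 in KAP_KO and 3.96 and 3.79 in KAP_WT. Its groups were apart by a small step, and it missed the threshold narrowly (log2 0.32, adjusted p = 0.0578). Gsc, the goosecoid factor of the anterior streak, had a change of 0.01 (95% confidence interval -0.23 to 0.24) with overlapping samples. Evx1, an even-skipped type factor of the posterior streak, had a change of 0.07 (95% confidence interval -0.15 to 0.28).

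**Figure D2:**
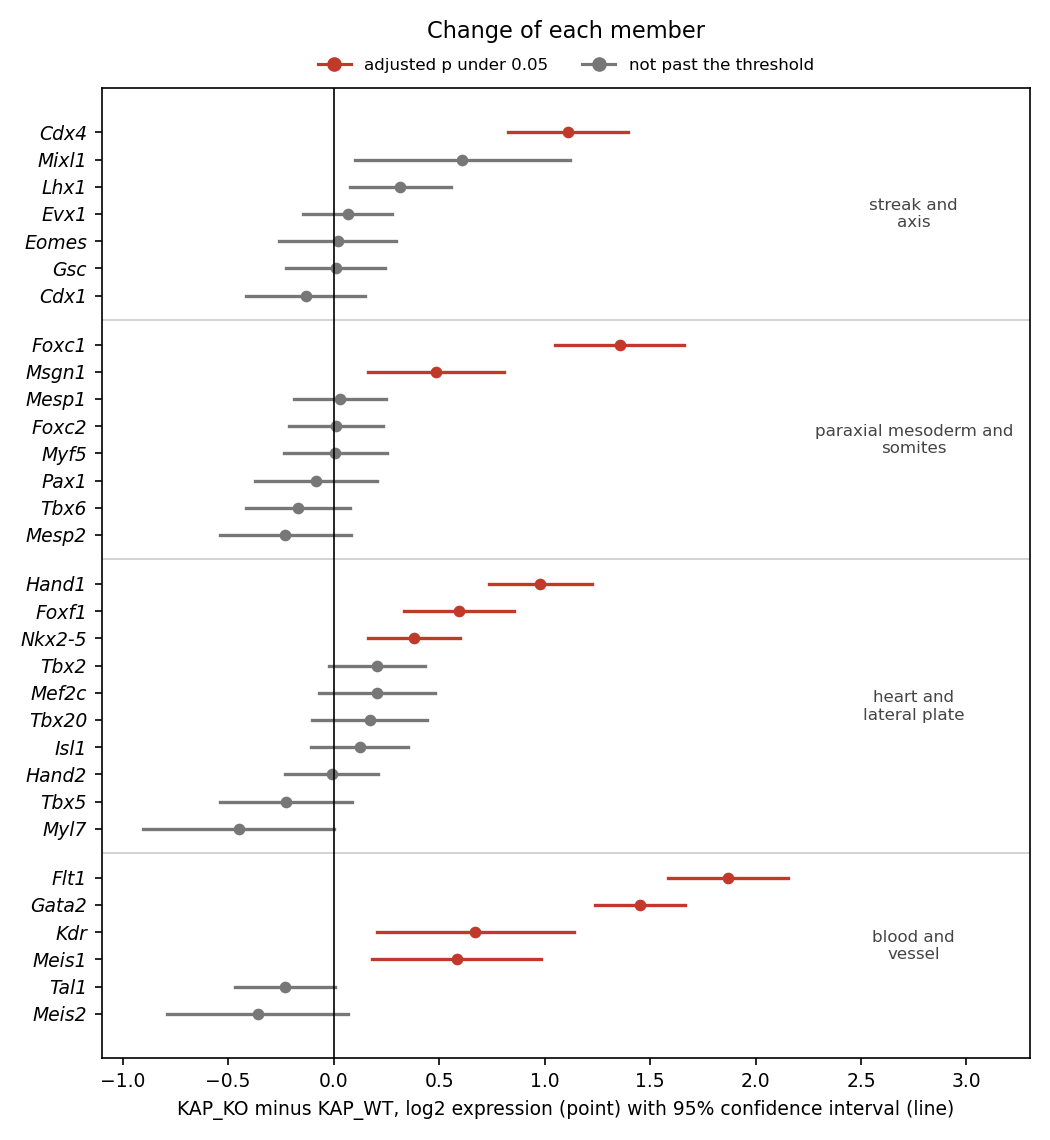
Change of each measured member, KAP_KO minus KAP_WT in log2 expression, as a point with its 95% confidence interval from limma, grouped by role and coloured where the adjusted p was under 0.05. Flt1 (1.87), Gata2 (1.45), Foxc1 (1.36), Cdx4 (1.11) and Hand1 (0.98) lie farthest right, and the intervals of most streak factors span 0.

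Foxc1 and Msgn1 were the 2 of 8 paraxial mesoderm and somite members that were higher in KAP_KO (25%, against 14.2% of all genes). Foxc1, a forkhead factor of paraxial mesoderm and mesenchyme, read 4.81 and 4.71 in KAP_KO, against 3.57 and 3.24 in KAP_WT. The step between groups was several times the gap between replicates (log2 1.36, SE 0.13, adjusted p = 0.00059, 2.56-fold). Foxc2, which overlaps with Foxc1 in somite and vessel development, read 3.95 and 4.05 in KAP_KO and 3.96 and 4.02 in KAP_WT. Its values were interleaved, with a change of 0.01 (95% confidence interval -0.21 to 0.23).

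Msgn1, the helix-loop-helix factor of presomitic mesoderm, read 5.13 and 5.14 in KAP_KO, against 4.46 and 4.84 in KAP_WT. The groups did not overlap, and the change of 0.49 (SE 0.14, adjusted p = 0.0388) lost its call without KAP_KO replicate 1, KAP_KO replicate 2 or KAP_WT replicate 1, at an adjusted p of 0.0776, 0.0959 and 0.146. Mesp1, the factor that opens the cardiovascular programme, read 3.66 and 3.72 in KAP_KO and 3.69 and 3.62 in KAP_WT. These samples overlapped, and the change of 0.03 had a 95% confidence interval of -0.19 to 0.25. Every Mesp1 value lay below the lower quartile of the tested genes, so a real change could be compressed there. Mesp2, its paralog in segmentation, read 5.18 and 5.03 in KAP_KO and 5.18 and 5.49 in KAP_WT, with a change of -0.23 (adjusted p = 0.256). Tbx6, the T-box factor that commits cells to paraxial mesoderm, read 4.61 and 4.59 in KAP_KO, against 4.67 and 4.86 in KAP_WT. Both knockout values of Tbx6 were the lower ones, but the change of -0.17 did not pass (adjusted p = 0.287). Pax1, of the sclerotome, and Myf5, of skeletal muscle precursors, had changes of -0.08 and 0.01 with overlapping samples.

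In the heart and lateral plate group, 3 of 10 members were higher (30%, against 14.2% of all genes) and 0 lower. Hand1, a helix-loop-helix factor of lateral mesoderm, the left ventricle and trophoblast giant cells, read 6.11 and 5.92 in KAP_KO, against 5.03 and 5.04 in KAP_WT. The wild-type samples nearly coincided, and the rise of 0.98 (SE 0.10, adjusted p = 0.000885) was 1.97-fold, just under the 2-fold mark that Cdx4 passed. Hand2, the paralog of the right ventricle and limb, read 4.07 and 4.18 in KAP_KO and 4.14 in both KAP_WT samples, and its change of -0.01 had a 95% confidence interval of -0.23 to 0.21.

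Foxf1, the forkhead factor of splanchnic and extraembryonic mesoderm, read 5.13 and 5.30 in KAP_KO, against 4.70 and 4.54 in KAP_WT. The groups were separate (log2 0.59, SE 0.11, adjusted p = 0.00823), and the call was lost in 1 alternative, without KAP_WT replicate 2 (adjusted p = 0.0734). Nkx2-5, a homeobox factor of cardiac progenitors, read 5.49 and 5.58 in KAP_KO, against 5.15 and 5.16 in KAP_WT. Its rise was small and even across samples (log2 0.38, SE 0.09, adjusted p = 0.0226), and it missed the threshold without KAP_KO replicate 2, KAP_WT replicate 1 or KAP_WT replicate 2, at adjusted p of 0.107, 0.103 and 0.101. Myl7, the atrial myosin light chain that marks early cardiac muscle, read 4.75 and 4.72 in KAP_KO and 5.49 and 4.88 in KAP_WT. Its first KAP_WT sample was high, and the change of -0.45 did not pass (adjusted p = 0.132), although it was -0.76 (adjusted p = 0.0232) without KAP_WT replicate 2. The other members of the group, Tbx2, Tbx5, Tbx20, Isl1 and Mef2c, are factors of the heart fields and chambers. Tbx5 read 3.12 and 3.06 in KAP_KO, against 3.14 and 3.49 in KAP_WT, both knockout values being the lower ones by a narrow step (log2 -0.23, adjusted p = 0.264). Changes of the remaining 4 were 0.21 for Tbx2, 0.21 for Mef2c, 0.17 for Tbx20 and 0.12 for Isl1, each with both KAP_KO samples above both KAP_WT samples and none past the threshold.

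By protein family, 0 of the 5 measured T-box factors passed in limma (0 at an unadjusted p under 0.05), and their changes ran from -0.23 to 0.21. Homeodomain factors were called higher for 3 of 10, helix-loop-helix factors for 2 of 7, forkhead factors for 2 of 3 and VEGF receptors for 2 of 2. Over all genes the share called higher was 14.2%. Hand1 and Hand2, Foxc1 and Foxc2, Meis1 and Meis2, and Cdx4 and Cdx1 each paired a called rise with a paralog that did not pass. These pairs were set side by side after their values were seen, and the difference within a pair was not tested. No member with a called rise stood among neighbours that had shifted: across all genes the median change of the 25 measured genes on either side had a 5th percentile of -0.16 and a 95th percentile of 0.07, and the neighbours of Eomes (-0.19), Mixl1 (-0.17) and Tbx6 (-0.23) lay below this range and those of Mef2c (0.09) above it.

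The 10 calls differed in how far they held across settings. Flt1, Gata2, Foxc1, Hand1 and Cdx4 were called in each alternative run on them, up to 13 settings that changed the normalization, the variance model, the probe sets, the threshold or the samples. Of these settings, the looser threshold, an adjusted p under 0.1, cannot remove a call. Each measured member has 1 single-gene probe set, so the probe set settings left its change as it was and moved only its adjusted p. Over the fits that left out 1 sample, the change ran from 1.72 to 2.02 for Flt1, from 1.42 to 1.49 for Gata2, from 1.19 to 1.52 for Foxc1, from 0.98 to 1.24 for Cdx4 and from 0.88 to 1.08 for Hand1. Foxf1 lost its call once, and Kdr, Meis1, Msgn1 and Nkx2-5 lost theirs in 5 or 6 alternatives each. Leaving out KAP_KO replicate 2, KAP_WT replicate 1 or KAP_WT replicate 2 left 6 members higher in each case. Among the 21 members that did not pass, 13 passed in no alternative, and 6 passed as lower in at least 1, in each case with array medians subtracted (Mesp2, Tbx6, Tbx5, Tal1, Meis2 and Myl7).

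**Figure D3:**
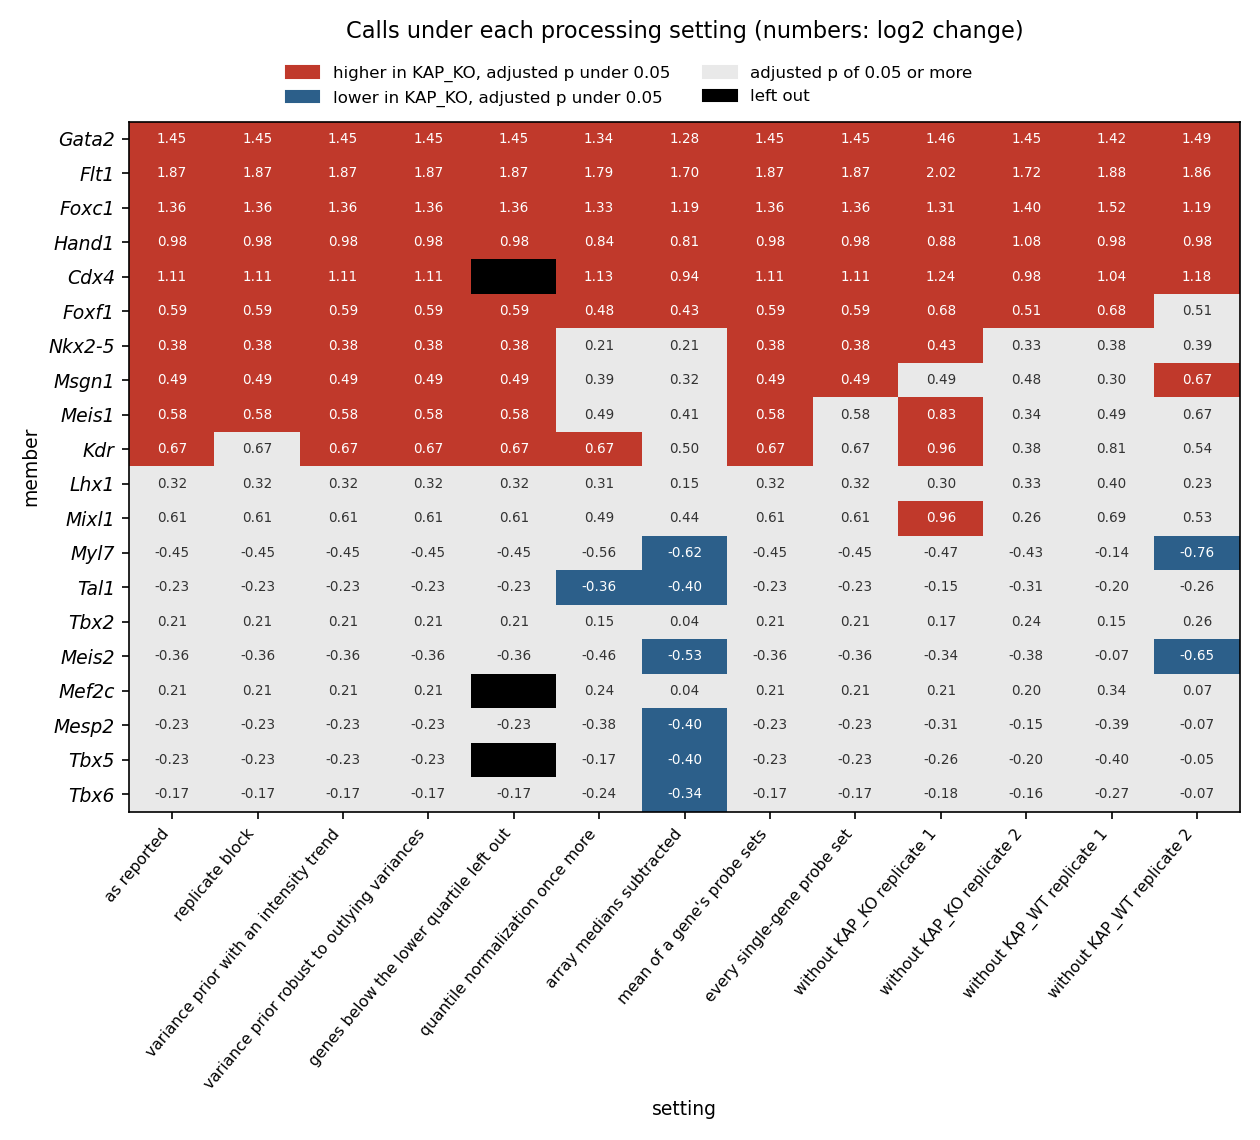
Log2 change (number in each cell, KAP_KO minus KAP_WT) of the 20 members with the lowest adjusted p, by row, under each processing setting, by column, coloured by whether and in which direction the adjusted p was under 0.05. Rows for Gata2, Flt1, Foxc1, Hand1 and Cdx4 are coloured throughout apart from 1 setting that leaves Cdx4 out as dim, and the column with array medians subtracted has 6 members called lower.

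Genes of the pathways that induce the streak, ligands and antagonists alike, were among those higher in the knockout cells. A companion list held ligands, receptors, antagonists and effectors of the Nodal, Wnt, BMP and FGF pathways. Of its 35 measured genes 19 were higher in KAP_KO (54.3%, against 14.2% of all genes). Another 4 were lower (11.4%, against 12.7% of all genes), and the median change was 0.69. Wnt3, the ligand that starts the streak in the posterior epiblast, read 6.66 and 7.54 in KAP_KO, against 3.95 and 4.15 in KAP_WT (log2 3.05). The Wnt-responsive genes Axin2 (2.38) and Sp5 (2.46) and the ligand gene Wnt8a (2.20) were higher too. So were the antagonist genes Lefty1 (1.40), Lefty2 (1.17), Nog (0.82) and Dkk1 (0.76). The antagonist gene Cer1 (0.08) did not pass, and its samples overlapped. The 4 lower genes were Fgf4 (-1.47), Pcsk6 (-0.68), Acvr1b (-0.49) and Wnt3a (-0.42). These antagonist and lower genes were named after their values were seen. Nodal read 9.36 and 9.21 in KAP_KO and 9.06 and 8.90 in KAP_WT, and Bmp4 had a change of -0.01, and neither passed (named after their values were seen). Among genes of streak exit and epithelial-mesenchymal change 12 of 17 were higher (70.6%, against 14.2% of all genes) and 1 lower. The largest rises were those of Cdh2 (3.37), Zeb2 (1.61), Snai1 (1.48) and Vim (1.44). The 12 also held the epithelial adhesion genes Cdh1 (0.57) and Epcam (0.62), and Zeb1 (-0.48) did not pass (all 3 named after their values were seen). Without KAP_WT replicate 2, 7 of these 17 were higher.

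Genes downstream in the mesodermal tissues included rises and falls, with shares called lower (13.6% presomitic and somite, 10.7% heart, 14.7% blood and vessel) near the 12.7% of all genes. Shares called higher were 27.3%, 21.4% and 26.5% in the same order, against 14.2% of all genes. Of 22 presomitic and somite genes 6 were higher and 3 lower (median -0.13), with Rspo3 (1.50) and the retinoic acid hydroxylase gene Cyp26a1 (1.40) up and the ephrin receptor gene Epha4 (-1.61) and the somite factor gene Tcf15 (-1.09) down. Of 28 heart genes 6 were higher and 3 lower (median 0.01). Gata4 (1.47), Tnnc1 (1.19) and Myh7 (0.90) rose and the chromatin subunit gene Smarcd3 (-1.18) fell. Gata4, Tnnc1 and Myh7 lie on chromosome 14, 1 of the chromosomes with shifted stretches in earlier results of these data. Whether the genes around these 3 had shifted was not tested. Without chromosomes 1, 6 and 14, 3 heart genes were higher. They were Nppb (0.87), Actc1 (0.84) and Hopx (0.49), named after their values were seen. Of 34 blood and vessel genes 9 were higher and 5 lower (median -0.04), with rises of Runx1 (2.11), Ets1 (2.00), Tie1 (1.67) and Nrp1 (1.15). Array medians subtracted gave 8 lower genes in the presomitic list, 7 in the heart list and 12 in the blood and vessel list.

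**Figure D4:**
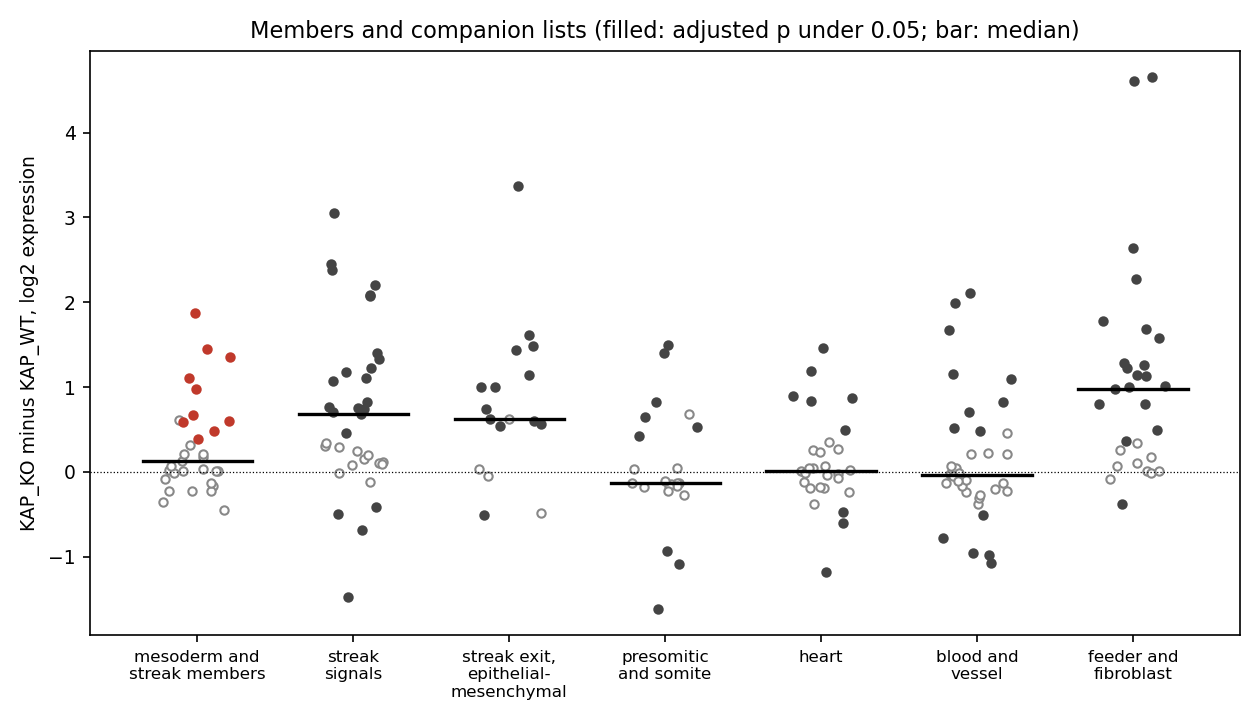
Change of each measured gene, KAP_KO minus KAP_WT in log2 expression, for the 31 members and the 6 companion lists, with genes past an adjusted p of 0.05 filled and a bar at each median. The members' median (0.12) lies below those of the streak signals (0.69) and of the feeder and fibroblast markers (0.97), and near those of the heart (0.01) and blood and vessel (-0.04) genes.

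Markers of other cells moved in the same samples. Of 29 measured feeder and fibroblast markers 19 were higher in KAP_KO (65.5%, against 14.2% of all genes) and 1 lower. Their summed linear level was 3944 and 4208 in KAP_KO, against 1467 and 1200 in KAP_WT. Acta2 (4.65) and Tagln (4.61), contractile genes, had the largest changes, followed by Dcn (2.64) and Timp3 (2.28). Without Acta2 and Tagln, left out after their values were seen, the sum was 2180 and 2072 in KAP_KO, against 1328 and 1152 in KAP_WT. In a shorter fixed list of 11 feeder fibroblast markers, all of them among the 29, 8 were higher (72.7%, against 14.2% of all genes). The summed level of these 11 was 666 and 664 in KAP_KO, against 303 and 257 in KAP_WT. Named after their values were seen, Col1a1 (1.78), Pdgfrb (1.58) and Postn (1.29) were among those that rose, and Fap (-0.08), Lum (0.18) and Thy1 (0.25) did not pass. Foxc1, Foxf1 and other members can be expressed in mesenchymal cells too, and the part of these cells in the rises of the members was not tested. In these bulk samples a change in the number of cells of a type and a change of RNA per cell cannot be told apart. Endothelial markers were split, with Tie1 and Cdh5 higher and Pecam1 and Tek lower among 6. The share was 33.3% in each direction, against 14.2% of all genes higher and 12.7% lower. The summed linear level of the 6 was 389 and 332 in KAP_KO, against 536 and 518 in KAP_WT. Pecam1 read 7.53 and 7.28 in KAP_KO, against 8.32 and 8.41 in KAP_WT. It was the highest of the 6 in each sample, so the sum follows Pecam1 most and not the 6 evenly. Of 5 measured cardiac muscle markers Actc1 (0.84) was higher and Ryr2 (-0.48) lower, 20% in each direction. Of 5 blood markers 0 passed in limma (1 at an unadjusted p under 0.05). The shares of all genes were again 14.2% higher and 12.7% lower.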

How the data were processed

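RNA of each sample went on 1 Affymetrix Mouse Gene ST array, per the labels' protocols. The authors deposited log2 values that, per the submitters' processing notes, come from affy and RMA. Their versions and the build behind the annotation are not given in the sources used here. No further scaling was applied. Of 35556 probe sets, 21218 had 1 gene symbol in the platform annotation, 1881 several, and 12457 are unnamed here. The probe set with the highest mean was kept per gene, which left 18820 genes without a filter on dim ones.

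KAP_KO was compared with KAP_WT in limma 3.58.1 (R 4.3.3; lmFit, eBayes; 2 residual and 4.70 prior degrees of freedom), two-sided, with Benjamini-Hochberg adjustment over all 18820 genes. The fit was tested on simulated data. Every member is named. Up to 4 called genes of largest change are named per companion list, and others only as chosen after their values were seen. The members, the lists and the tests were chosen with earlier results of these data known. RefSeq GRCm38.p6 gave gene order and promoter windows. With 2 arrays a group, their number limits the precision.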

Additional observations from a re-analysis of the deposited data

How the results depend on the processing

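The alternatives were a replicate block, 2 other variance priors, a filter on dim genes, 2 scalings, 2 uses of probe sets, each sample left out, an adjusted p under 0.1 and, for the counts, leaving out chromosomes 1, 6 and 14 (for the companion lists chosen after seeing the data). With array medians over the tested genes subtracted, the members' median turned to -0.046, with 6 members higher and 6 lower. In this setting 6392 genes in all were lower, with 8, 7 and 12 lower genes in the presomitic, heart and blood and vessel lists. Quantile normalization made 1 member lower. Over fits that left out 1 sample, 6 to 10 members were higher and 0 to 2 lower, and 1531 to 2405 genes were higher and 899 to 1945 lower. In those fits the lists gave 1 to 4 lower streak signals, 7 to 13 higher and 0 to 1 lower streak exit genes, 1 to 4 lower heart genes and 0 to 1 lower fibroblast markers. The intensity trend left 0 lower fibroblast markers. Lower streak exit genes numbered 2 under the replicate block, the dim-gene filter, both scalings and an adjusted p under 0.1. Heart genes higher numbered 3 without the 3 chromosomes. The replicate block left 9 members higher, Kdr losing its call (adjusted p = 0.0616). The labels do not say that equal replicate numbers mark paired samples. Over genes, the difference between replicates 1 and 2 correlated between groups at 0.145, and at 0.235 over genes above the median level, and with 2 pairs this does not settle the pairing. The filter on dim genes left out 6 members, Mesp1, Tbx5, Isl1, Mef2c, Myf5 and Cdx4. Causes of these shifts were not tested. Background methods that need scanner intensities were not run, and small changes of dim members are the ones signal over background, unknown here, limits most.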

Other observations

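Genes that pattern the segmented and anterior mesoderm showed further differences, named here after their values were seen. Lfng, a Notch-modifying glycosyltransferase of the segmentation clock, read 6.53 and 6.61 in KAP_KO, against 5.89 and 5.96 in KAP_WT, and the Notch ligand gene Dll3 read 6.01 and 5.98 in KAP_KO, against 5.50 and 5.42 in KAP_WT. Both passed the test, while Hes7, the oscillating repressor of the clock, had a change of -0.13 (adjusted p = 0.402). Ripply1, of the presomitic and somite list, went the other way and passed as lower in limma (log2 -0.94, adjusted p = 0.0129). It read 5.36 and 4.94 in KAP_KO, against 6.32 and 5.85 in KAP_WT. Foxa2, the factor of node and definitive endoderm, read 5.43 and 5.68 in KAP_KO, against 5.03 and 4.86 in KAP_WT (adjusted p = 0.0113). The VEGF receptor gene Flt4, a paralog of Flt1 and Kdr, read 5.66 and 5.42 in KAP_KO, against 4.54 and 4.34 in KAP_WT, a rise of 1.10. Among ligands of these receptors, Pgf had a change of 0.82 and Vegfa one of -0.98, both past the threshold. Etv2, the factor that specifies endothelial and blood precursors, read 5.32 and 5.37 in KAP_KO and 5.37 and 5.35 in KAP_WT.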
